A study of Mus musculus with 7 samples.

Results

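U7 is the small nuclear RNA that guides the 3′ end processing of replication-dependent histone mRNAs. In the CIRS-seq tables of mouse embryonic stem cells (ESCs), taking every transcript whose gene symbol is exactly U7 gave 1 transcript, ENSMUST00000158458 of gene ENSMUSG00000089083, among 26827 transcripts. It was 1 of the 13218 genes and 1 of the 918 small nuclear RNA (snRNA) genes for which reverse transcription stops were listed. The mouse annotation (GENCODE vM1) holds 116 genes with this symbol, and the other 115 had no listed position in any library. RefSeq names on the same chromosome an snRNA gene of the same length, 62 bases, as Rnu7.

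CIRS-seq reads the unpaired bases of RNA from chemical marks. E14 ESCs, a mouse line of the 129/Ola strain, were lysed and their proteins were digested with proteinase K. The naked RNA was left untreated (NT) or exposed to 1 of the reagents. These were dimethyl sulfate (DMS), which mainly marks unpaired A and C, and CMCT, which mainly marks unpaired U and G. The DMS libraries pooled RNA treated for 2 minutes with doses from 50 to 200 mM, the CMCT libraries pooled RNA treated for 20 minutes with doses from 10 to 50 mM, and the NT libraries pooled the 0 mM samples of both series. Each condition had 2 libraries of ribosome-depleted total RNA, and 1 RNA-seq library of ribosome-depleted RNA from the same cells was also analysed. A reverse transcription (RT) stop was counted at the base before the start of each read.

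U7 works as a particle in which the RNA is held by a ring of Sm proteins containing the U7-specific members Lsm10 and Lsm11. The single-stranded 5′ end of the RNA pairs with the downstream element of histone pre-mRNAs, the Sm site in the middle binds the protein ring, and a hairpin closes the 3′ end. Because the proteins had been digested here, the marks bear on the RNA without its particle.

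The gene lies on the minus strand of chr6:124691243-124691304 (mm9). Its 5′ part is shown because every RT stop listed on U7 fell there, and the Sm site because no stop listed on U7 did. Both are given in DNA letters from the mm9 reference, 5′ to 3′, and the capitals in the first line mark the 11 bases with at least 1 RT stop in any library.
U7 bases 1 to 25: AAGTgTTACagCtcTTttagaattt
U7 Sm site, bases 21 to 31: AATTTGTCTAG

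The whole of U7 lies inside exon 1 of Grcc10 (ENSMUSG00000072772), a protein-coding gene on the same strand. That exon, in transcript ENSMUST00000004389, spans chr6:124690938-124691392 (455 bases), with 88 bases before U7 and 305 bases after it. The overlap matters for the counts, because a complementary DNA (cDNA) that ran to the very first base of U7 gives a stop at the base before U7, and that base belongs to the Grcc10 transcript only. The 10 bases before U7, where such stops could fall, are shown for this reason, all in lower case.
10 bases before U7: gcacttccgc

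The 6 CIRS-seq libraries held between 140186204 and 247369982 RT stops when each genomic position was counted once per gene. Only a small part of these lay at positions whose following 25 bases were found once in mm9, between 10744703 and 19643950 per library. The totals used for scaling thus come mostly from other positions. A position could be counted only if at least 25 bases followed it, so the last 25 bases of U7 were not measurable and 37 bases were. In the RNA-seq library all 10 ES cell marker genes examined were present, from 146 to 8156 alignments each and 34980 in sum. The sums for the endoderm, mesoderm, neural and fibroblast lists of 4 markers each were 570, 47, 785 and 25 alignments, with Afp at 0 and 3 of the 4 neural markers found in the annotation.

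RT stops inside U7 were few and were more numerous after DMS. NT replicates 1 and 2 held 1 and 4 RT stops, DMS replicates 1 and 2 held 21 and 27, and CMCT replicates 1 and 2 held 9 and 6, 68 in all. In these raw counts both CMCT libraries lay between the NT and the DMS libraries. How many of all genes showed such an order was not counted. Per 100000000 stops of the TMM-scaled library, NT replicate 2 stood at 3.33 and CMCT replicate 1 at 3.56. Exact Poisson 95% intervals, which cover counting error only, ran from 0.0253 to 5.57 and from 1.09 to 10.2 for the NT libraries, from 13.0 to 32.1 and from 17.8 to 39.3 for DMS, and from 4.12 to 17.1 and from 2.20 to 13.1 for CMCT. The intervals of NT and CMCT overlapped, whereas those of both DMS libraries lay above those of both NT libraries. Scaled to 100000000 RT stops of the library, U7 took 1.5 ± 1.34 stops in NT, 14.9 ± 3.69 after DMS and 3.96 ± 0.454 after CMCT (mean ± SD, n = 2 each).

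DMS against NT asks whether the TMM-scaled level of stops on U7 differed after treatment. It sets U7 against the other genes and does not measure an absolute gain in stops. With edgeR's quasi-likelihood test over 13216 genes, the log2 fold change of U7 was 2.75 (SE 0.71, adjusted p = 0.0125), higher in both DMS libraries than in both NT libraries. The background was high, since 26.4% of all genes tested were called in this comparison and 13.8% were called higher in DMS. U7 passed the filter on low counts only through its DMS libraries, and without that filter the log2 fold change was 2.75 (adjusted p = 0.0130). Fits that leave out 1 library keep 1 library in that arm and take its spread from the other groups. The call was lost when NT replicate 1 was left out (log2 fold change 1.90, adjusted p = 0.141), when NT replicate 2 was left out (4.19, adjusted p = 0.0526), and when DMS replicate 1 was left out (2.94, adjusted p = 0.0722). It was also lost when only positions whose following 25 bases occur once in mm9 were counted (2.70, adjusted p = 0.0551 by edgeR).

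CMCT against NT gave a log2 fold change of 1.01 for U7 (SE 0.83, adjusted p = 0.398 by edgeR), where 29.0% of all genes were called. The value was 0.16 without NT replicate 1 and 2.45 without NT replicate 2. DMS against CMCT gave 1.74 (SE 0.58, adjusted p = 0.0823 by edgeR), where 9.25% of all genes were called, 2.47% higher and 6.79% lower in DMS. U7 was thus called in neither comparison, although without DMS replicate 2 the second gave 1.54 (adjusted p = 0.0445 by edgeR) and without CMCT replicate 2 it gave 1.80 (adjusted p = 0.0218 by edgeR).

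The stops were gathered at base 7, a U upstream of the pyrimidine stretch (bases 12 to 17) within the part of U7 that pairs with histone pre-mRNAs. Base 7 held 1 and 3 RT stops in NT replicates 1 and 2, 16 and 16 in the DMS replicates, and 4 and 5 in the CMCT replicates, 45 of the 68 in all. In these raw counts both DMS libraries were above the other 4, and the CMCT libraries were above both NT libraries. The order of CMCT and NT did not hold after scaling to library totals. These were 247369982 for CMCT replicate 1 and 163073003 for NT replicate 2. Base 7 took 4 of the 5 U7 stops in NT (Wilson 95% interval of the share 37.6 to 96.4%), 32 of 48 in DMS (52.5 to 78.3%) and 9 of 15 in CMCT (35.7 to 80.2%), and these intervals, which pool both libraries and cover counting error only, overlapped between the conditions. Of positions in any gene with 30 to 35 DMS stops in sum, 17.3% had the same count in both replicates. The share expected of independent libraries was not computed, and whether the replicate counts are independent was not tested. The intervals and the edgeR tests given for U7 take them as independent.

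The next positions were far lower. Base 8, an A, held 0 and 1 stops in NT, 3 and 3 in DMS and 0 and 0 in CMCT. Base 1, an A, held 1 and 3 stops in DMS, 1 and 0 in CMCT and none in NT. Base 6, a U, held 1 and 1 stops in CMCT and none in DMS or NT. All other positions had at most 2 stops in any library.

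**Figure D1:**
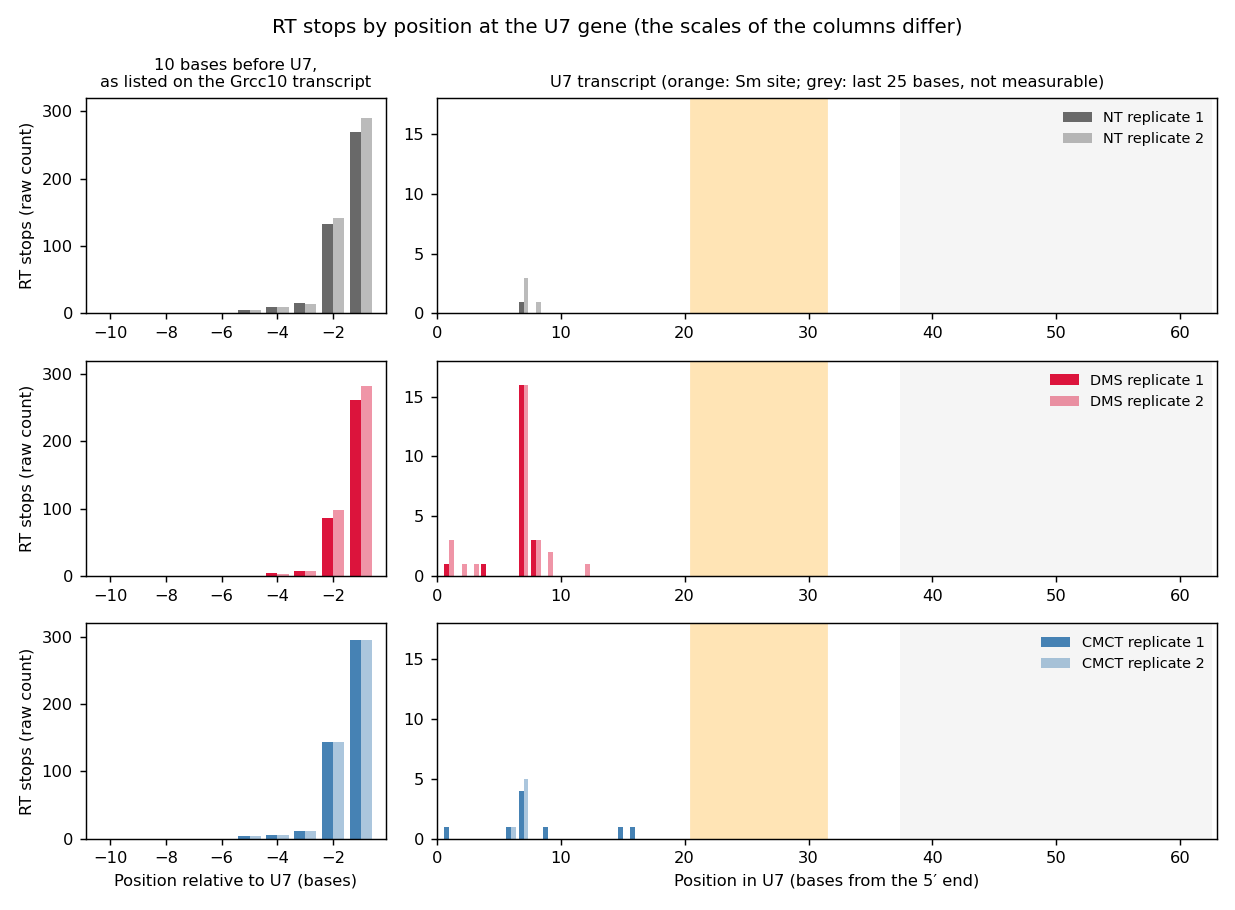
RT stops (raw count) by position for NT, DMS and CMCT, with replicate 1 in the darker and replicate 2 in the lighter bars; the left column shows the 10 bases before U7 as listed on the Grcc10 transcript and the right column U7 itself, on a smaller scale. Base 7 holds 16 stops in both DMS libraries, no stop listed on U7 lies beyond base 16, and the base just before U7 holds 262 to 295 stops in every library.

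By base, the DMS stops split between base 7 and the rest. U positions held 33 of the 48 DMS stops, A positions 11, C positions 3 and G positions 1, over 15 measurable U, 9 A, 5 C and 8 G. Base 7 alone accounted for 32 of those at U, and at all other bases A and C, which DMS mainly marks, held 14 of 16 DMS stops. The paper also reports non-canonical reactivity in both treatments, of DMS with G and U and of CMCT with C. Whether base 7 is such a case was not tested. In CMCT, U positions held 13 of 15 stops, 9 of them at base 7, A and C positions 1 each and G positions 0. In NT, U positions held 4 of 5 stops and A positions 1. Since base 7 carried most stops in every condition, NT included, the ratio to NT was also taken at the bases with a stop in either condition. The mean log2 ratio of DMS to NT at 5 A and C positions minus that at 3 G and U positions was -0.03. It was 0.35 over all 37 measurable bases and 1.11 when every stop was moved 1 nucleotide downstream. The matching value for CMCT, 4 G and U minus 3 A and C positions, was 0.81. It was 1.79 without replicate 1, 0.08 without replicate 2, 0.13 over all 37 bases and -0.35 when the stops were moved 1 nucleotide upstream. No base preference can be read from values that move this far, and they have no test, since the positions of 1 RNA are not replicates.

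No U7 stop was listed at bases 17 to 37, which include the Sm site. That is 0 of 68 stops over 21 bases, which allows a share of up to 4.41% of the U7 listing, for counting error only and over 6 pooled libraries. The Grcc10 transcript listed other counts for the same genomic bases: 78 stops over the 37 measurable bases in place of 68, of which 8 (10.3%) lay at bases 17 to 37 and 5 of these in the Sm site. The absence of stops from the Sm site therefore holds for the U7 listing only. The Grcc10 listing held 2 and 3 stops in NT, 22 and 28 in DMS, and 14 and 9 in CMCT, the same order of the conditions. How the reads of the shared bases were divided between the 2 listings is not given in the sources used here.

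A minimum free energy fold of the 62 bases (RNAfold) is given as a description of the sequence alone. It had 19 base pairs at -17.5 kcal per mol, in a stem of bases 2 to 4 with 11 to 13, a stem of bases 17 to 21 with 27 to 31, and the 3′ hairpin of bases 34 to 44 with 49 to 59. In that fold 64 of the 68 RT stops lay at unpaired bases and 4 at paired ones, while 20 of the 37 measurable bases were paired. Base 7 lay in the loop of the first stem. Most of these stops share base 7, so the counts are not independent.

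A reactivity score was modelled on that of CIRS-seq, a log2 ratio to NT capped at the 90th percentile and scaled from 0 to 1. Setting negative values to 0 and taking the larger of DMS and CMCT were choices made here, which the paper's main text does not state. This score put 7 U7 positions above 0.7, namely bases 1, 6, 7, 8, 9, 15 and 16. It put 11 there when scaled to library totals. In a transcript with so few stops the score did not grade them: each of the 7 had the value 1, whether it held 45 stops or 1. No U7 position reached the 60 RT stops set for the test of single positions, which 655390 positions of the tables did, and so no position of U7 was tested.

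Far more RT stops were listed just before U7 than inside it. The base before U7 held 269 and 290 RT stops in NT replicates 1 and 2, 262 and 283 in DMS and 295 and 295 in CMCT. The base before that held 133 and 142 stops in NT, 87 and 98 in DMS and 144 and 143 in CMCT. In raw counts the first pile ran from 262 to 295 over all 6 libraries, and the second was lower in both DMS libraries than in the other 4.

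Over the 10 bases before U7 the sums were 433 and 462 in NT, 360 and 392 in DMS, and 460 and 460 in CMCT. These 2567 stops were 30.6% of the 8381 RT stops of Grcc10, and no stop was listed farther upstream in the exon, over the first 78 bases. Scaled to library totals, the sums differed up to 1.76-fold between libraries. The pile did not follow depth, since both CMCT libraries held 460 stops at library totals of 247369982 and 140186204. The part of the exon after U7 held 310 and 155 stops in the CMCT libraries, 310 and 140 in NT and 445 and 325 in DMS. Of single positions in any gene with 500 to 700 CMCT stops in sum, 13.2% had the same count in both replicates. That range covers the base just before U7 (295 and 295 in CMCT) and not the sums over 10 bases.

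The stops at the 2 sites were also set against each other within each library. Since the pile before U7 did not follow depth, this ratio is no correction for depth. Of the RT stops inside U7 and on the 10 bases before it, 0.230% and 0.858% lay inside U7 in NT replicates 1 and 2, 5.51% and 6.44% in the DMS replicates, and 1.92% and 1.29% in the CMCT replicates. Wilson 95% intervals, for counting error only, were 0.0407 to 1.29% and 0.334 to 2.19% in NT, 3.63 to 8.28% and 4.47 to 9.21% in DMS, and 1.01 to 3.61% and 0.591 to 2.78% in CMCT. The DMS libraries lay above all others, and the CMCT intervals overlapped those of NT. On average the NT libraries stood at 0.544 ± 0.444%, the DMS libraries at 5.98 ± 0.659% and the CMCT libraries at 1.60 ± 0.446% (SD, n = 2), with DMS 11-fold over NT. That fold rests on the 1 and 4 NT stops, and was 6.96 without NT replicate 1 and 25.9 without NT replicate 2. With 2 libraries against 2, a two-sided exact permutation test cannot give a p below 0.333.

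**Figure D2:**
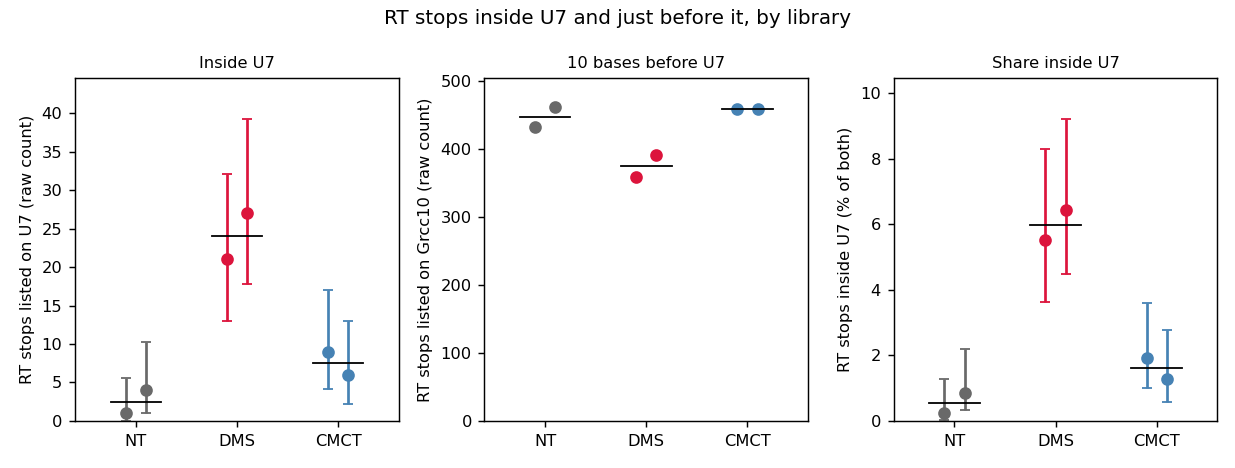
RT stops listed on U7 with Poisson 95% intervals (left), RT stops on the 10 bases before U7 (middle), and the share of both that lay inside U7 in percent with Wilson 95% intervals (right); points are libraries and black lines group means. Inside U7 the DMS libraries hold 21 and 27 stops against 1 and 4 in NT, while before U7 they hold 360 and 392 against 433 and 462.

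Counting this pile for U7 turned the direction of the test by gene. With the 10 bases before it counted for U7, its log2 fold change was -0.65 for DMS against NT (adjusted p = 0.132), -0.43 for CMCT against NT (adjusted p = 0.332) and -0.23 for DMS against CMCT (adjusted p = 0.713, all by edgeR). Tested as a feature of their own, the 10 bases gave -0.73 in DMS (SE 0.31, adjusted p = 0.0933 by edgeR) and -0.44 in CMCT (SE 0.31, adjusted p = 0.316 by edgeR). Grcc10 without these bases stood at 0.00046 in DMS (adjusted p = 0.998 by edgeR) and -0.33 in CMCT (adjusted p = 0.307 by edgeR).

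**Figure D3:**
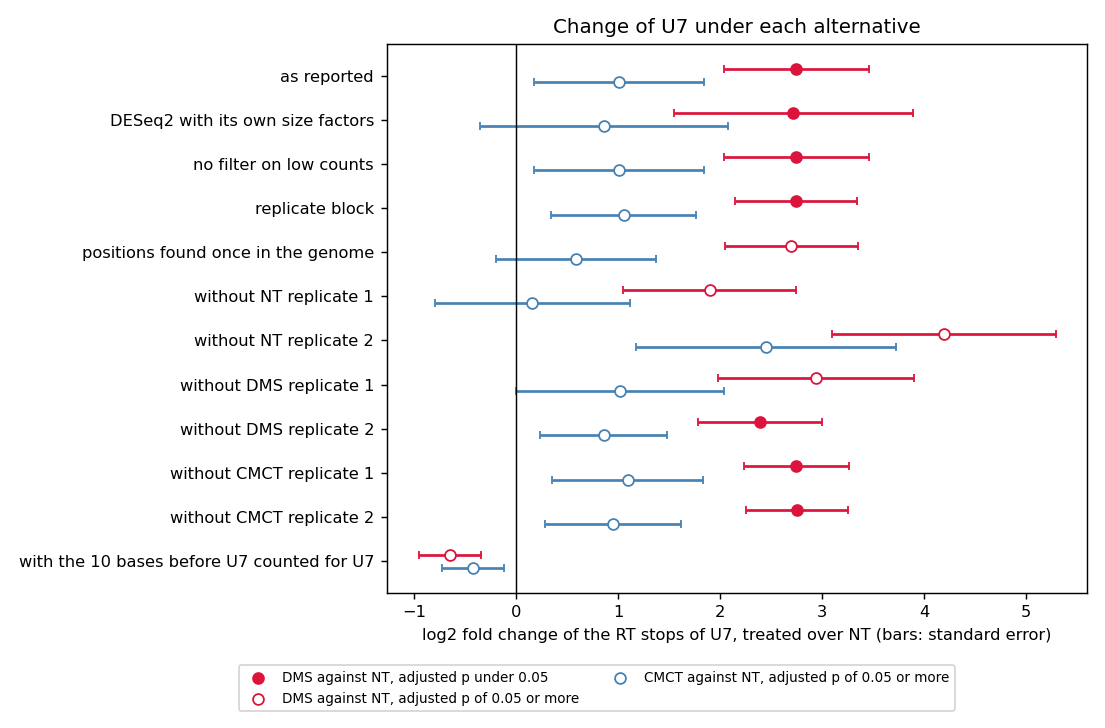
Log2 fold change of the RT stops of U7 (treated over NT) with its standard error under each processing alternative, red for DMS and blue for CMCT, filled where the adjusted p is under 0.05. The DMS value is 2.75 as reported and -0.65 with the 10 bases before U7, and no CMCT value is filled.

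The RNA-seq library gave little signal at this place. It had 6 alignments that overlapped U7, all on its strand, and 0 that lay inside it. Mean depth was 2.05 over U7, 0.568 over the 88 bases of the exon before it and 6.94 over the 305 bases after it. The median alignment was 50 bases long.

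Whether the stops could belong to other places of the genome was read from the mm9 reference. This cannot tell U7 RNA from Grcc10 RNA, whose exon 1 holds the same bases on the same strand. The Grcc10 listing also held 16 and 16 DMS stops at base 7. Which of these RNAs gave the stops was not tested. The reads themselves had been mapped to a version of mm9 carrying the single-base variants of the ESC line. Whether those variants change any of the sequences compared here was not tested. The 25 bases after each of positions 1 to 8, base 7 included, occurred once in mm9, as did those for 2 to 10 bases before U7. The 25 bases after the base just before U7 occurred at a second place, on chromosome 5, where no U7 gene is annotated. Those after bases 9 to 21 also occurred in another annotated U7 gene, ENSMUSG00000088970 on chromosome 1. It was 82.3% identical to the listed gene and was the 1 other copy with the same Sm site. The other 115 annotated copies were 46 to 66 bases long and 62.3 to 84.1% identical to the listed gene (median 73.0%), with 0 at 90% or more.

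U7 was among the least covered of the snRNAs when only its own positions were counted. It held 1.84 RT stops per measurable base over the 6 libraries, and 12 of the 918 snRNA genes held fewer. The lowest genes of U1, U2 and U6 held 1.82, 1.31 and 1.33, and those of U4 and U5 2.15 and 36.6. U4atac, a minor spliceosome RNA also listed as 1 gene, held 59.1 stops per base. The 3 U11 genes had a median of 52.6 and a lowest value of 2.2, the 4 U12 genes a median of 119 and a lowest of 68.8, and the 6 U6atac genes a median of 12.7 and a lowest of 5.05. With the 10 bases before it, U7 held 2635 stops or 56.1 per base, and 280 snRNA genes held fewer. Other snRNA genes were not extended in this way. Of the 918 snRNA genes 338 were called higher and 130 lower in DMS against NT, with a median log2 fold change of 0.46 beside 0.01 over all genes, of which 13.8% were called higher and 12.5% lower. In CMCT against NT 650 were called higher and 15 lower, with a median of 1.74 beside 0.11 over all genes. Of all genes 15.0% were called higher and 13.9% lower. U6 copies, 664 of the 918, gave 322 of the snRNA genes called higher in DMS and 588 of those in CMCT. U1 copies, 133 in number, gave 104 of those called lower in DMS. Copies of 1 RNA share sequence, so these calls are not independent.

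**Figure D4:**
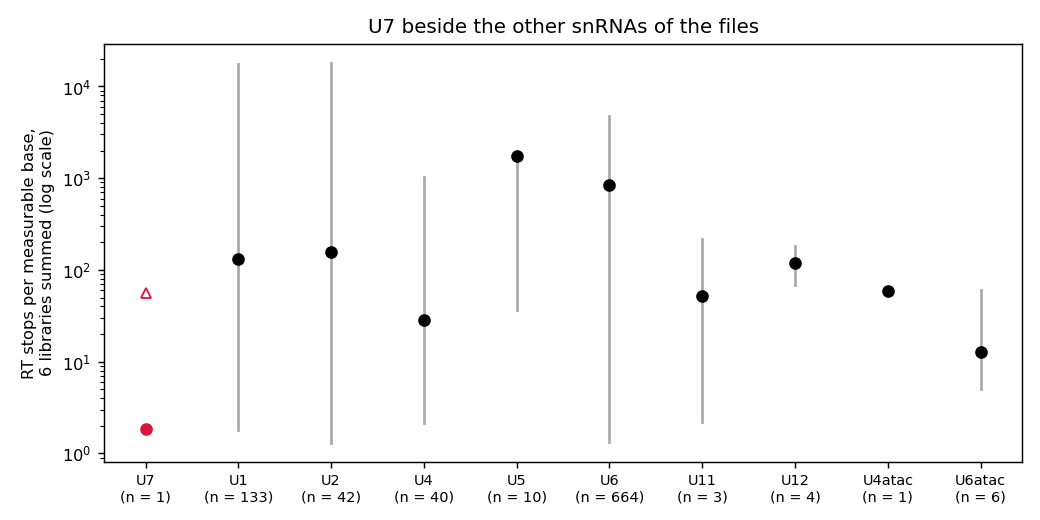
RT stops per measurable base, summed over the 6 libraries (log scale), for each snRNA symbol; dots are medians over genes, lines run from the lowest to the highest gene and n is the number of genes. U7 (red dot) stands at 1.84 and, with the 10 bases before it, at 56.1 (open triangle).

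Other short RNAs also held many of their stops near the 5′ end. Of 283 transcripts of 50 to 80 bases with at least 60 RT stops, the first 16 bases held a median of 77.9% of the stops (quartiles 52.5 and 89.8%). The last 25 bases of each were not measurable, so 16 bases were already a large part of those that were. In U7 they were 16 of 37. The window ends at the last base with a stop listed on U7, so that the 100% of U7 is fixed by this choice. On the Grcc10 listing 70 of 78 stops lay in it.

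Of the 23 protein genes listed for the U7 particle and for histone 3′ end processing, 19 had RT stops in the tables. In DMS against NT 2 were called higher, 2 lower and 15 passed in neither direction, a share of 21.1% called beside 26.4% of all genes (13.8% higher, 12.5% lower), with a median log2 fold change of -0.08 beside 0.01 over all genes. Among the Sm proteins that U7 shares with the spliceosomal snRNAs, Snrpf rose (1.28, adjusted p = 0.00748 by edgeR) and Snrpb fell (-0.76, adjusted p = 0.0342 by edgeR). Eri1, an exonuclease that trims histone mRNA ends, rose (0.70, adjusted p = 0.0465 by edgeR). Cstf2t, a paralogue of the cleavage stimulation factor Cstf2, fell (-1.61, adjusted p = 0.0024 by edgeR). Lsm11 stood at -0.70 (adjusted p = 0.0559 by edgeR) and Slbp, which binds the histone stem-loop, at -0.10 (adjusted p = 0.859 by edgeR).

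In CMCT against NT 0 of these 19 genes were called higher, 2 lower and 17 in neither direction, a share of 10.5% called beside 29.0% of all genes (15.0% higher, 13.9% lower), with a median of 0.18 beside 0.11 over all genes. Cstf2t (-1.64, adjusted p = 0.00229 by edgeR) and the scaffold protein gene Sympk (-2.20, adjusted p = 0.0101 by edgeR) fell. For Sympk, the raw counts were 42132 and 51878 stops in NT, 24803 and 67063 in DMS, and 25448 and 7776 in CMCT. Its replicates thus lay far apart in both DMS and CMCT. Lsm10 and Casp8ap2 had no RT stop listed, but the RNA-seq library held 129 and 3447 alignments on them, beside 185 on Lsm11 and 2364 on Slbp.

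The genes whose RT stops followed U7 most closely over the 6 libraries were Zfyve19 (Pearson r = 0.988), mt-Rnr2, the large mitochondrial ribosomal RNA (0.980), AC133891.1 (0.980), AC158626.1 (0.976) and Rgs17 (0.973), of 12191 genes compared. Zfyve19 held 296 and 355 stops in NT, 849 and 1040 in DMS, and 805 and 438 in CMCT. With 6 points that share library depth, these correlations are a description only.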

How the data were processed

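The authors mapped CIRS-seq reads with Bowtie 1.0.0 and deposited raw counts of RT stops per transcript position for each library. According to the paper, the reference for mapping was a version of mm9 carrying the single-base variants of the ESC line. The sequences and the uniqueness of positions given here were read from mm9 without those variants. How reads with several places were treated is not given in the sources used here, which do not include the study's supplementary methods. The RNA-seq alignments (TopHat2 2.0.6, per the labels) were deposited as positions only and were counted here. Pooled tables of both replicates were not used.

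RT stops were summed per gene, every genomic position once (the highest value over isoforms), after matching transcripts to GENCODE vM1 on mm9 (26792 of 26827 matched). The test by gene was the quasi-likelihood test of edgeR 4.0.16 (R 4.3.3), with filterByExpr, TMM scaling, 1 fit of all 6 libraries and Benjamini-Hochberg adjustment over every gene tested (threshold 0.05); it was first tested on simulated data. SE is the log2 fold change divided by the square root of F. DESeq2 1.42.0, the fit without a filter, the replicate block, positions unique in mm9 and leaving out each library were alternatives. Counting the 10 bases before U7 for U7, the crossed block, the variants of the share inside U7 and the base values over all measurable bases were chosen after seeing the data. Folds came from ViennaRNA 2.7.2. Base ratios used a pseudocount of 1 RT stop, and likeness between genes a pseudocount of 0.01 CPM.

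The U7 gene, the gene lists and the comparisons were chosen with earlier results of these data known. Named positions are the 3 with most stops per treatment, and genes most like U7 the 5 of highest correlation among those with 1000 or more stops. The study calls the CIRS-seq replicates biological; the labels do not say what separated them. Position 7 and the pile before U7 were described after their values were seen.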

Additional observations from a re-analysis of the deposited data

How the results depend on the processing

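The DMS against NT call of U7 held by DESeq2 (log2 fold change 2.72, adjusted p = 0.0486), without the filter, under the block and without DMS replicate 2 or either CMCT library. It was lost (0 U7 genes called) with positions found once in mm9 (2.70) and with the 10 bases before U7, where the fold change turned to -0.65. Leaving out 1 library gave 1.90 to 4.19 and 0 to 1 U7 genes called. CMCT against NT stayed uncalled under all alternatives, 0.16 to 2.45 without a library, and turned to -0.43 with the 10 bases. DMS against CMCT gave 1.54 to 1.92 and 0 to 1 U7 genes called without a library, and -0.23 with the 10 bases. The labels do not say what a shared replicate number stands for. Same-numbered NT and DMS libraries deviated together, and the test as reported takes no account of this. The deviations of same-numbered libraries correlated at 0.554 for NT and DMS, 0.0108 for NT and CMCT and -0.107 for DMS and CMCT. With the replicate block U7 was called in the last comparison (1 U7 gene, 1.69, adjusted p = 0.00648 by edgeR), and DMS against NT gave 2.74 (adjusted p = 8.1e-05 by edgeR). With the CMCT numbers crossed, U7 was not called (1.77, adjusted p = 0.155 by edgeR) and 1939 genes were. Over all genes, the block raised the number called from 3485 to 5616 in DMS against NT, from 3827 to 5030 in CMCT against NT and from 1223 to 2420 in DMS against CMCT. DESeq2 called 5595, 4931 and 2674 genes.

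Per 100000000 stops, counting only positions found once gave 22.4 in NT, 189 in DMS and 37.2 in CMCT, since totals shrink, and counting every listed position gave 11.2 in DMS and 2.98 in CMCT. Against the 1 base before U7 only, the share inside U7 was 8.07% for DMS, 2.48% for CMCT and 0.865% for NT, and 2.44% in CMCT with the Grcc10 listing. The DMS base value was -0.31 with a pseudocount of 5, -0.44 with stops moved upstream, 1.11 downstream, 0.35 over all measurable bases, and -0.54 to -0.23 without a replicate. The CMCT base value (0.81) was -0.35 with stops moved upstream, 0.32 with a pseudocount of 5, 1.79 without replicate 1 and 0.08 without replicate 2. Scaling to library totals gave 11 reactive positions in place of 7. The causes of these changes were not tested. At 68 stops no position of U7 reached the 60 or 200 stops needed, so the position tests and their alternatives gave no value. Base values from positions with at least 20 stops gave none either, since base 7, a U with 45 stops, was the only such position.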
